A study of Homo sapiens with 6 samples.

Results

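The MHC class I antigen presentation genes were chosen by symbol: the heavy chain genes HLA-B, HLA-C and HLA-E, the light chain gene B2M, the peptide loading genes TAP1, TAP2 and TAPBP, and the immunoproteasome genes PSMB8 and PSMB9. All 9 were among the 13271 genes of the deposited table, and all 9 passed the filter on low values (3 or more libraries at 1 or above), which left 12866 genes. The cells were 5637, a human bladder cancer cell line. The control group received an empty vector (3 libraries) and the MAT1A group a plasmid carrying MAT1A, the methionine adenosyltransferase gene best known from liver (3 libraries). Both groups were transfected with Lipofectamine 3000 at 50% confluency, and RNA was taken 48 h later. Nothing in the labels says that the 3 libraries of a group came from separate cultures. The p-values therefore cover the spread among these libraries alone, and that spread may be technical. All cells were of 1 line, and the labels do not give the share of cells that took up the plasmid.

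MHC class I molecules show short peptides from inside the cell to CD8 T cells and natural killer cells. Proteasomes cut proteins into peptides, and the transporter TAP moves these into the endoplasmic reticulum. There tapasin and other chaperones help to load them onto a heavy chain bound to β2-microglobulin. Interferons and NF-κB signalling raise most genes of the pathway, and under interferon the immunoproteasome subunits take the place of catalytic subunits of the standard proteasome. Loss or weak expression of class I molecules is well known in bladder and other cancers.

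MAT1A itself stood at 0.253 to 4.54 in the control libraries and at 1805 to 1917 in the MAT1A libraries, in the unit of the deposited table. These values are reads on a CPM-like scale, that is, reads of a gene scaled so that the values of every library sum to nearly the same total. The reads recovered from them summed to between 17.4 and 21.6 M per library. Of 16 epithelial and urothelial markers listed, 15 were found. KRT5 was abundant, at 1539 ± 55.3 in control (SD, n = 3). It rose with MAT1A by a log2 change of 0.32, as did KRT17 by 0.44 and KRT14 by 0.38. Uroplakin genes were low or absent. UPK1B stood at 8.19 ± 1.04 and UPK2 at 0.83 ± 0.14 in control (SD, n = 3), and UPK3A was not found. UPK2 did not pass the filter on low values. Of 14 epithelial markers tested, 7 were higher and 1 lower (GATA3, log2 change -0.28), against 4.01% and 7.4% of all tested genes. The part of these markers in the class I values was not tested. In these bulk libraries fewer cells of a type and less RNA per cell cannot be told apart. Of 14 leukocyte markers only LYZ was among the analysed genes, with at most 1.66 in a library, and of 13 class II genes only CD74 (23.3 ± 0.95 and 23.3 ± 2.38) and CIITA (1.39 ± 0.37 and 1.29 ± 0.19; SD, n = 3, control first). Control 1 stood apart in skeletal muscle genes. The 12 listed genes summed to 467, 149 and 93.4 in control 1, 2 and 3. In MAT1A 1, 2 and 3 the sums were 92.1, 46.3 and 44.3, so that number 1 was highest in both groups. Of these 12 genes 11 were called lower. Values without control 1 are given below for each class I gene called.

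The class I genes stayed close to their control levels, and those that passed the test were higher with MAT1A. HLA-C, TAPBP and PSMB8 rose, by log2 changes of 0.14, 0.18 and 0.21, and 6 of the 9 genes did not pass (limma, Benjamini-Hochberg adjusted p under 0.05 over all 12866 genes). Of all tested genes 4.01% were called higher and 7.4% lower. No class I gene was called lower by limma, edgeR or DESeq2, and with limma 0 were lower and 4 higher at an unadjusted p under 0.05, against 1832 lower and 1541 higher among all 12866 genes. With the replicate number as a block, limma called 4 higher (PSMB9 in addition), against 7.57% of all genes. In that fit the limma adjusted p was 0.00862 for HLA-C, 0.00277 for TAPBP and 0.0168 for PSMB8. For the 9 genes the median log2 change was 0.078, against 0.0040 over all tested genes, and 8 of the 9 lay above 0, as did 6623 of the 12866. Each log2 change is the MAT1A mean less the control mean of log2(value + 1), a scale that understates the change of low genes.

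**Figure D1:**
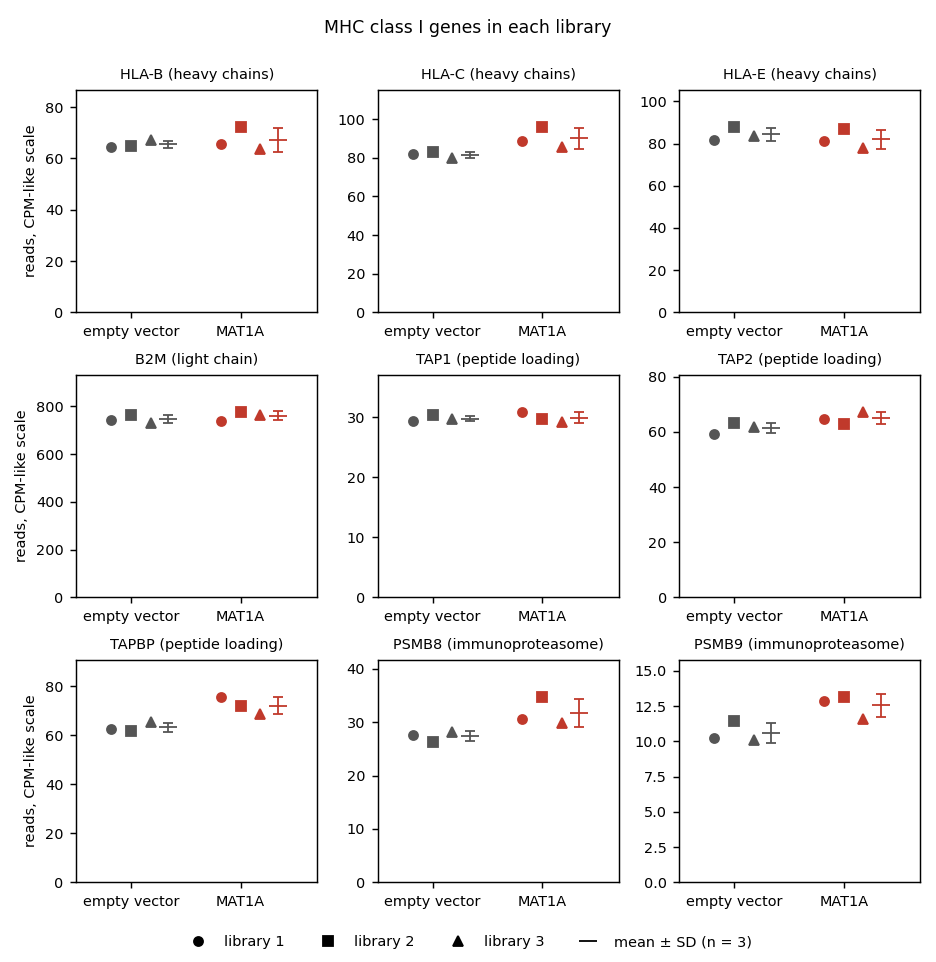
Values of the 9 genes in each library, as deposited, on the CPM-like scale (linear axes from 0), with 1 symbol per library and mean ± SD over 3 libraries. Symbols of the groups do not overlap for HLA-C, TAPBP, PSMB8 and PSMB9, and overlap for the other 5 genes, B2M being the highest at means of 746 and 760.

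Sequences upstream of 6 of these genes are shown because class I genes share known control elements and because the RefSeq starts of TAP1 and PSMB9 lie back to back. RefSeq windows on GRCh38.p14, from 250 bases before to 50 after a start site, were matched for 8 of the 9 genes, all but HLA-E; PSMB8 and TAP1 have 2 windows each. The HLA-B window is at chr6:31357130-31357429 on the minus strand and the HLA-C window at chr6:31272043-31272342 on the minus strand. Those of B2M and TAPBP are at chr15:44711267-44711566 on the plus strand and chr6:33314029-33314328 on the minus strand. TAP1 (chr6:32853655-32853954, minus strand) and PSMB9 (chr6:32853942-32854241, plus strand) are read in opposite directions from starts 488 bases apart, so that their windows overlap by 13 bases. Each sequence runs 5′ to 3′ in the direction of its gene, and capitals mark the motif matches described after it.

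HLA-B: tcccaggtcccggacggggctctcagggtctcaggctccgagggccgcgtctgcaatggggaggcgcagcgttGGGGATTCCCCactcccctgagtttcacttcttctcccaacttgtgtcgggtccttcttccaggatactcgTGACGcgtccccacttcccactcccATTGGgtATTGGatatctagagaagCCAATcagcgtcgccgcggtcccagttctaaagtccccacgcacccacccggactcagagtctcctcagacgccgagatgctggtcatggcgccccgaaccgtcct

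HLA-C: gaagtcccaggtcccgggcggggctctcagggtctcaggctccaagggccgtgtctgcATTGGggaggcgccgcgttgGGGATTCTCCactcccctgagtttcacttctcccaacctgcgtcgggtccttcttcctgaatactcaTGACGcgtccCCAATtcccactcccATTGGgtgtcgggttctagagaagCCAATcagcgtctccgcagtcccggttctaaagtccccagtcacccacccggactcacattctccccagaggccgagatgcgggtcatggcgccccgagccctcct

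B2M: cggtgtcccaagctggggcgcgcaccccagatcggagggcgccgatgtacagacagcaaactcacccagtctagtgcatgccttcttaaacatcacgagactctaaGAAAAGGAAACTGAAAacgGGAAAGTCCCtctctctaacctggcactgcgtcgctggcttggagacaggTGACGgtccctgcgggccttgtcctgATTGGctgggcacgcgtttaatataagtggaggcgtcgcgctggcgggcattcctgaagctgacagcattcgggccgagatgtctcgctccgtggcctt

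TAPBP: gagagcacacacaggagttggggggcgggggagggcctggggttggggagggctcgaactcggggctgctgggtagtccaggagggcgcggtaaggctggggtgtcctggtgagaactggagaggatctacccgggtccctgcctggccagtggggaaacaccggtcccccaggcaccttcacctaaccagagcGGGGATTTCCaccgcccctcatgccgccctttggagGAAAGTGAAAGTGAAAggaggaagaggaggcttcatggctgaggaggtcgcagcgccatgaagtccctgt

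TAP1: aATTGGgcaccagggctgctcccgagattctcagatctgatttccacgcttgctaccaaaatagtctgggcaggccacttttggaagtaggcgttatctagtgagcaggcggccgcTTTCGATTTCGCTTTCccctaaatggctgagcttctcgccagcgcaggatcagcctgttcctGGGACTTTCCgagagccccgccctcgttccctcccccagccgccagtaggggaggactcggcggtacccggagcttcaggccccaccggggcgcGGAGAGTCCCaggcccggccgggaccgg

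PSMB9: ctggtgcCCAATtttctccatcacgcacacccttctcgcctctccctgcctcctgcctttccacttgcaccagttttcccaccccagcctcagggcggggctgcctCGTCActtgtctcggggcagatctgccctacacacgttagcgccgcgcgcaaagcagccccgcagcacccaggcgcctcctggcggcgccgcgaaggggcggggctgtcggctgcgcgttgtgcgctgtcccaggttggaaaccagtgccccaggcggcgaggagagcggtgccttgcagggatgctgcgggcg

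In class I promoters the SXY module, where the NLRC5 complex binds, holds a CRE-like element and a Y box, and upstream of it lie sites for NF-κB and interferon regulatory factors. Searched on both strands, the Y box letters ATTGG were in the windows of 5 of the 8 genes (B2M, HLA-B, HLA-C, PSMB9 and TAP1, where the last 2 share 1 match in the overlap of their windows) and the CRE core TGACG in those of 6 (B2M, HLA-B, HLA-C, PSMB8, PSMB9 and TAP2). The interferon-stimulated response element (GAAA, any 2 bases, GAAA) was found for 5 genes (B2M, PSMB8, TAP1, TAP2 and TAPBP), in overlapping copies for B2M, TAP1 and TAPBP. This search allowed no departure from the letters, so the lack of a match for HLA-B and HLA-C does not mean that they lack such an element. The NF-κB consensus was found for 5 (B2M, HLA-B, HLA-C, TAP1 and TAPBP), in overlapping copies for HLA-B. Of 35116 RefSeq windows of the same length, 34.6% held the Y box letters, 24.6% the CRE core, 3.57% the interferon element and 11.3% the NF-κB consensus. These shares are per window, while the counts are per gene and PSMB8 and TAP1 each had 2 windows, so they are not like for like. The HLA-B and HLA-C windows were identical at 88.5% of 304 aligned columns and held the same 3 kinds of match. These are matches of letters and were not tested against the expression values.

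Among the heavy chains HLA-C was higher with MAT1A, while HLA-B and HLA-E did not pass. HLA-C presents peptides and is a main ligand of inhibitory receptors of natural killer cells. Its gene lies at chr6:31268749-31272130 on the minus strand of GRCh38, and its value was 82.1, 83.0 and 79.8 in control 1, 2 and 3, against 88.7, 96.0 and 85.5 in MAT1A 1, 2 and 3. All 3 MAT1A libraries lay above all controls. The means were 81.6 ± 1.63 and 90.1 ± 5.37 (SD, n = 3), which is 0.14 on the log2 scale with an SE of 0.04 (limma adjusted p = 0.0461). HLA-C lost its call when any library but MAT1A 3 was left out (log2 changes of 0.093 to 0.15, limma adjusted p = 0.0752 to 0.179; 0.14 and 0.114 without control 1), as it did in edgeR (adjusted p = 0.0510) and DESeq2 (adjusted p = 0.0932).

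HLA-B, the most polymorphic classical heavy chain gene, was 64.5, 64.7 and 67.1 in control 1, 2 and 3, against 65.5, 72.3 and 63.7 in MAT1A 1, 2 and 3. The groups overlapped, and MAT1A 2 was the only library above all controls. The log2 change was 0.035, with a 95% interval from -0.064 to 0.13 (limma adjusted p = 0.682), and it was -0.018 without MAT1A 2. HLA-E shows leader peptides of other class I chains to the NKG2A receptor. Its gene lies at chr6:30489467-30494205 on the plus strand; it was 81.6, 87.9 and 83.8 in control 1, 2 and 3, against 81.3, 86.9 and 78.1 in MAT1A 1, 2 and 3. These groups overlapped too, with a log2 change of -0.040 and an interval from -0.13 to 0.053 (limma adjusted p = 0.609).

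The summed value of the 3 heavy chain genes ranged from 228 to 236 in control and from 227 to 255 in MAT1A libraries. Within each library HLA-B was compared with HLA-C as a log2 ratio of (value + 1). That ratio was -0.31 ± 0.06 in control and -0.42 ± 0.01 in MAT1A libraries (SD, n = 3), a difference of -0.10 with no overlap (exact permutation test, two-sided p = 0.1, the smallest that 3 against 3 allows; 0.15 adjusted over the 6 ratios compared). HLA-B and HLA-C also stood apart in how far short reads can tell them from other genes. Of all 36-base windows of the reference transcript of HLA-B, 28.2% occur in transcripts of another gene, 20.2% in AL671883.2, a pseudogene on the opposite strand of the same locus, and 7.08% in HLA-C. For HLA-C the share is 15.1%, for HLA-E 9.98%, and for B2M, TAPBP, PSMB8 and PSMB9 it is 0. The annotated HLA-B gene spans chr6:31269491-31357188 on the minus strand and shares 35 exon bases with HLA-C. The alleles of 5637 can differ from the reference, and the sources used here do not give how reads that match several places were counted, so values of these genes are uncertain in both groups.

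B2M, the light chain shared by all class I molecules, did not pass. It lies outside the MHC, at chr15:44711487-44718877 on the plus strand, and was 742, 763 and 732 in control 1, 2 and 3, against 740, 777 and 764 in MAT1A 1, 2 and 3. The groups overlapped, and the log2 change was 0.028, with an interval from -0.036 to 0.092 (limma adjusted p = 0.602). B2M passed in 1 of 17 alternative analyses, the one with a length and GC trend removed and the replicate number as a block (log2 change 0.056, limma adjusted p = 0.0446). The log2 ratio of HLA-B to B2M was -3.49 ± 0.06 in control and -3.48 ± 0.08 in MAT1A libraries (SD, n = 3; difference 0.0072, exact permutation p = 0.9, adjusted p = 0.9).

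Per kb of reference transcript, the order of the 9 levels in control libraries was B2M, HLA-C, HLA-B, TAPBP, HLA-E, TAP2, PSMB8, PSMB9 and TAP1. B2M stood at 437 ± 9.42 per kb, HLA-C at 53.1 ± 1.06 and TAP1 at 10.1 ± 0.16 (SD, n = 3). Neighbours in this order did not overlap between the 3 control libraries, except TAPBP with HLA-E and TAP2 with PSMB8. Lengths were those of 1 reference transcript per gene, from 782 bases for PSMB9 to 2959 for TAP1, and the transcripts used by 5637 were not measured here.

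Of the peptide loading genes, TAPBP was higher with MAT1A and the transporter genes did not pass. TAPBP encodes tapasin, which holds empty class I molecules at the TAP transporter. Its gene lies at chr6:33299694-33314387 on the minus strand, with 62.6, 61.8 and 65.3 in control 1, 2 and 3, against 75.6, 71.7 and 68.8 in MAT1A 1, 2 and 3. Every MAT1A library exceeded every control. The means were 63.3 ± 1.85 and 72.0 ± 3.44 (SD, n = 3), which is 0.18 on the log2 scale with an SE of 0.04 (limma adjusted p = 0.0108), and TAPBP was also called by edgeR (adjusted p = 0.0127) and DESeq2 (adjusted p = 0.0202). It lost its call without control 1 (log2 change 0.18, limma adjusted p = 0.0507) and without MAT1A 1 (0.15, adjusted p = 0.0687).

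TAP1 and TAP2 form the transporter as a heterodimer, and both lie in the class II region of the MHC on the minus strand. TAP1 (chr6:32845209-32853978) was 29.4, 30.3 and 29.6 in control 1, 2 and 3, against 30.9, 29.8 and 29.2 in MAT1A 1, 2 and 3. The groups overlapped, with the smallest change of the 9 genes, a log2 change of 0.0074 and an interval from -0.100 to 0.11 (limma adjusted p = 0.947). TAP2 (chr6:32821833-32838780) was 59.3, 63.1 and 61.9 in control 1, 2 and 3, against 64.6, 62.9 and 67.3 in MAT1A 1, 2 and 3. MAT1A 2 fell within the control range, and the log2 change was 0.078, with an interval from -0.011 to 0.17 (limma adjusted p = 0.252). Of the 36-base windows of the TAP2 transcript 80.3% also occur in AL669918.1, an annotated gene that overlaps it on the same strand, and 14.6% of those of TAP1 occur in PSMB8-AS1 on the opposite strand.

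**Figure D2:**
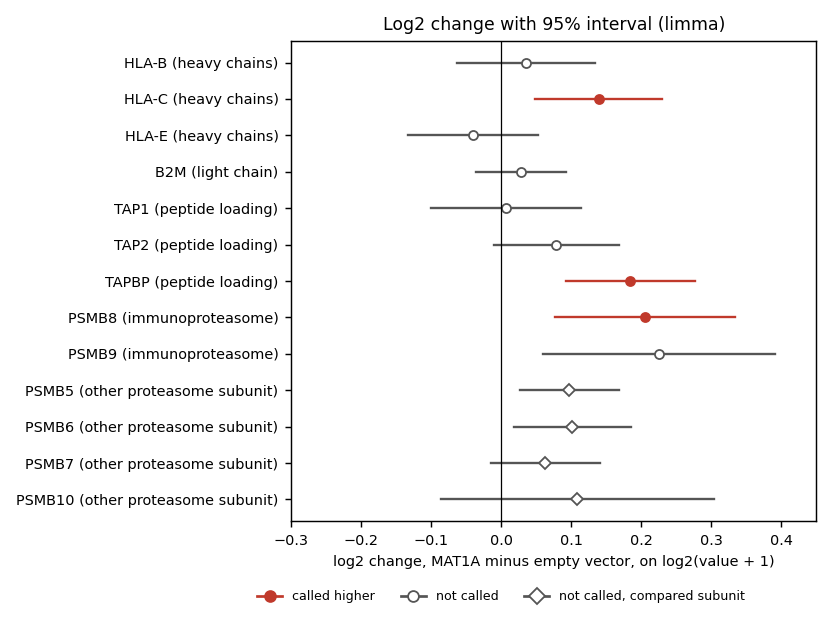
Changes on the log2 scale for each class I gene and of 4 further proteasome subunits (x axis, MAT1A minus empty vector on the log2(value + 1) scale), with 95% intervals from limma; filled symbols were called. The intervals of HLA-C, TAPBP, PSMB8, PSMB9, PSMB5 and PSMB6 lie above 0, but PSMB9, PSMB5 and PSMB6 did not pass after adjustment over all genes.

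The immunoproteasome genes had the largest log2 changes of the 9, and PSMB8 passed. PSMB8 encodes the immunoproteasome subunit that takes the place of PSMB5. Its gene (chr6:32840717-32844703, minus strand) was at 27.6, 26.3 and 28.1 in control 1, 2 and 3, against 30.5, 34.7 and 29.9 in MAT1A 1, 2 and 3. The groups did not overlap, and MAT1A 2 was the highest library. The means were 27.3 ± 0.96 and 31.7 ± 2.63 (SD, n = 3), which is 0.21 on the log2 scale with an SE of 0.06 (limma adjusted p = 0.0377). PSMB8 lost its call when any library but MAT1A 3 was left out (log2 changes of 0.14 to 0.23, limma adjusted p = 0.0557 to 0.140; 0.21 and 0.0877 without control 1) and in DESeq2 (adjusted p = 0.0886), but kept it in edgeR (adjusted p = 0.0379).

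PSMB9 encodes the subunit that takes the place of PSMB6. It was the lowest of the 9 genes on the deposited scale, with 179 to 256 reads per library, and was 10.3, 11.4 and 10.1 in control 1, 2 and 3, against 12.9, 13.2 and 11.6 in MAT1A 1, 2 and 3. All MAT1A libraries lay above all controls, MAT1A 3 only just. The log2 change was 0.22, with an interval from 0.059 to 0.39, and it did not pass (limma adjusted p = 0.0753); it did with the replicate number as a block (0.0401) and without MAT1A 3 (log2 change 0.28, limma adjusted p = 0.0426). The annotated PSMB9 gene (chr6:32844136-32859585, plus strand) contains the whole span of TAP1, whereas the RefSeq start of its promoter window lies outside that span. PSMB9 shares 139 exon bases with PSMB8 on the opposite strand, and PSMB8 shares 618 with PSMB8-AS1. The kit does not mark strand, so reads there cannot be told apart.

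The groups did not overlap for 4 of the 9 genes, all of them higher with MAT1A (HLA-C, TAPBP, PSMB8 and PSMB9). Over all tested genes, 14.7% did not overlap and were higher with MAT1A. By role, 1 of 3 heavy chain genes, 1 of 3 peptide loading genes, 1 of 2 immunoproteasome genes and 0 of 1 light chain gene were called higher. Over all tested genes the share was 4.01%. With at most 1 called gene per role, these counts do not rank the roles. The median log2 changes of the heavy chain, peptide loading and immunoproteasome genes were 0.035, 0.078 and 0.22. The summed peptide loading genes ranged from 151 to 157 in control and from 164 to 171 in MAT1A libraries, and the summed immunoproteasome genes from 37.7 to 38.2 and from 41.5 to 47.9. These sums add nothing to the single genes: neither immunoproteasome gene overlapped between groups, and of the loading genes only TAPBP did not.

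Immunoproteasome subunits were set against the standard subunits that they replace. The log2 ratio of PSMB8 to PSMB5 was -2.51 ± 0.06 in control and -2.40 ± 0.08 in MAT1A libraries (SD, n = 3), a difference of 0.11 with overlapping groups (exact permutation p = 0.2, adjusted p = 0.24). That of PSMB9 to PSMB6 was -3.34 ± 0.08 and -3.22 ± 0.03, a difference of 0.12 with no overlap (exact permutation p = 0.1, adjusted p = 0.15). The gap was narrow, with control 2 at -3.247 and MAT1A 3 at -3.237. PSMB5 went from 160.0 ± 2.58 to 171 ± 5.57 and PSMB6 from 116 ± 1.41 to 125 ± 6.86, and neither passed (limma adjusted p = 0.0730 and 0.112), though both did with the replicate number as a block (limma adjusted p = 0.0220 and 0.0359) and PSMB6 did without MAT1A 3 (0.0201). TAP1 and PSMB9, the neighbours read in opposite directions, gave a log2 ratio of 1.41 ± 0.07 in control and 1.19 ± 0.07 in MAT1A libraries, a difference of -0.22 with no overlap (exact permutation p = 0.1, adjusted p = 0.15). The log2 ratio of TAP1 to TAP2 went from -1.02 ± 0.03 to -1.09 ± 0.08, a difference of -0.071 with no overlap (exact permutation p = 0.1, adjusted p = 0.15). These groups were barely apart. Control 3 was at -1.037, and MAT1A 1, 2 and 3 were at -1.040, -1.055 and -1.178, so the difference came mostly from MAT1A 3. None of the 6 ratios can pass with 3 libraries against 3. Within replicate numbers, PSMB8 to PSMB5 was higher in 3 of 3 pairs, by 0.058, 0.25 and 0.011 (exact paired sign-flip test, two-sided p = 0.25, the smallest that 3 pairs allow). HLA-B to B2M, the other ratio with overlapping groups, was higher in 2 pairs and lower in 1 (exact paired p = 1).

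**Figure D3:**
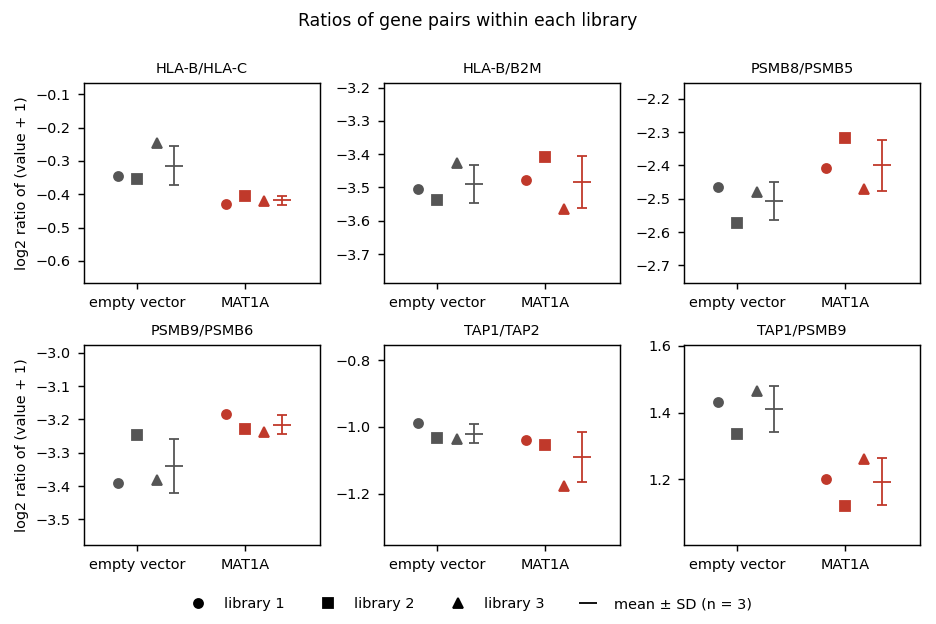
Log2 ratio of (value + 1) for 6 pairs of genes within each library (y axes of equal length, not from 0), with 1 symbol per library and mean ± SD over 3 libraries. HLA-B/HLA-C, TAP1/TAP2 and TAP1/PSMB9 are lower in all MAT1A libraries and PSMB9/PSMB6 higher, while HLA-B/B2M and PSMB8/PSMB5 overlap between groups. The groups of TAP1/TAP2 and of PSMB9/PSMB6 lie barely apart.

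Among other genes of peptide loading and class I folding, 7 of 15 tested were higher and 0 lower (4.01% and 7.4% over all tested genes). The median log2 change was 0.11. HSPA5, the endoplasmic reticulum chaperone BiP, rose from 1140 ± 14.7 to 1286 ± 37.7 (SD, n = 3; log2 change 0.17, limma adjusted p = 0.00121). CALR, calreticulin of the loading complex, rose from 745 ± 12.3 to 814 ± 26.9 (0.13), GANAB, a glucosidase subunit that trims newly made glycoproteins, by 0.12, and BCAP31, a membrane protein of the endoplasmic reticulum, by 0.13. CALR and BCAP31 lost their calls without control 1 or control 3, and GANAB also without MAT1A 1 (limma adjusted p up to 0.102). Most of these chaperones serve many proteins besides class I.

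Of 6 further immunoproteasome and proteasome activator genes, 2 were higher and 0 lower (median log2 change 0.099). The shares over all tested genes, here and for the next 2 lists, were 4.01% higher and 7.4% lower. PSME1, a subunit of the interferon-inducible activator PA28, rose from 96.5 ± 3.14 to 110 ± 3.54 (SD, n = 3; log2 change 0.19, limma adjusted p = 0.00390) and stayed called whichever library was left out. PSME3, the nuclear activator, rose by 0.088 and lost its call when any library but MAT1A 2 was left out (limma adjusted p up to 0.172), with DESeq2 size factors (0.0503), in edgeR (0.0543) and in DESeq2 (0.0581). PSMB10, the immunoproteasome subunit that takes the place of PSMB7, stood at 6.79 ± 0.42 and 7.42 ± 0.74 and did not pass (log2 change 0.11, limma adjusted p = 0.489). Of 14 standard core subunits, 1 was higher and 0 lower, with a median log2 change of 0.074. With the replicate number as a block 4 were higher and 0 lower, against 7.57% of all genes higher. Without the block the called gene was PSMA4, which rose by 0.11. It was no longer called when control 1, control 3, MAT1A 1 or MAT1A 2 was left out (limma adjusted p up to 0.237), in edgeR (0.0558) and in DESeq2 (0.0797). Of 8 cytosolic peptidase genes, 1 was higher and 0 lower (median 0.031): THOP1, thimet oligopeptidase, rose by 0.13 and was no longer called when control 1, control 3 or MAT1A 1 was left out (limma adjusted p up to 0.0968).

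Of 13 further class I and class I-like heavy chain genes, 0 were higher and 1 lower, near the 7.4% of all tested genes called lower. With the replicate number as a block 2 were lower, against 1336 of all 12866 genes. The median log2 change was -0.029. RAET1L, a stress ligand of the NKG2D receptor, fell from 11.2 ± 0.31 to 8.78 ± 0.72 (SD, n = 3; log2 change -0.32, limma adjusted p = 0.0147). It lost its call without control 1 or MAT1A 2 (adjusted p up to 0.0625) and in DESeq2 (0.0646). Of 11 genes of class I turnover, 0 were higher and 2 lower, with a median of 0.041 (4.01% higher and 7.4% lower over all tested genes). With the block 2 were higher and the same 2 lower, against 7.57% of all genes higher and 1336 of 12866 lower. The 2 lower were NBR1, an autophagy receptor (log2 change -0.21), and MARCH4, a membrane ubiquitin ligase (-0.22), both called whichever library was left out.

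**Figure D4:**
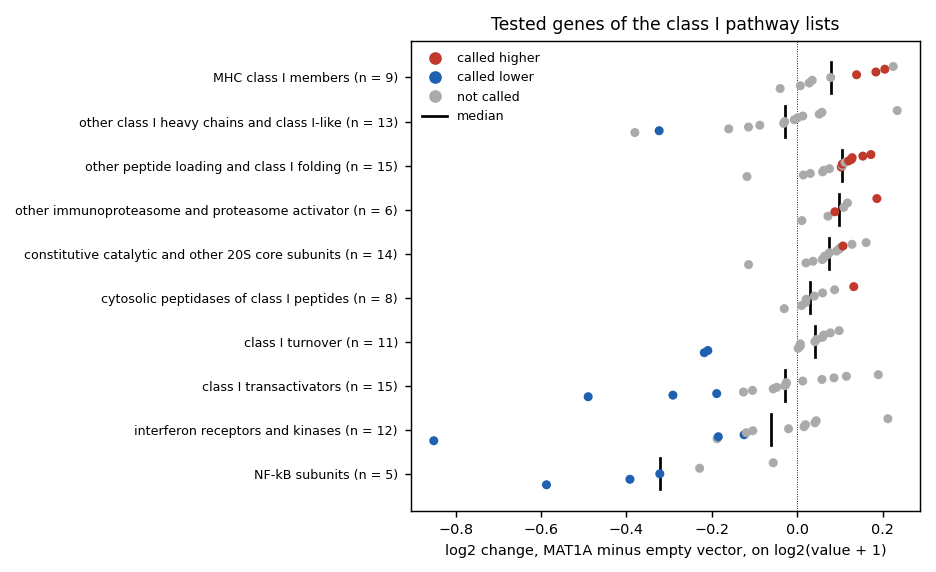
Log2 change of each tested gene (x axis, MAT1A minus empty vector on the log2(value + 1) scale) of the 9 class I genes and of 9 further lists of the pathway, with black bars at the medians; red genes were called higher and blue genes lower. Called genes of the loading and proteasome lists lie above 0, and those of the transactivator, interferon receptor and NF-κB lists below 0.

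Known activators of class I transcription were lower in part. Of 15 tested transactivator genes, 0 were called higher and 3 lower, against 4.01% and 7.4% of all tested genes. The median log2 change was -0.029. IRF1, the interferon regulatory factor that acts on class I promoters, fell from 61.0 ± 1.39 to 49.7 ± 2.71 (SD, n = 3; log2 change -0.29, limma adjusted p = 0.000459). CREB1, which can bind the CRE-like element, fell from 74.5 ± 1.79 to 65.3 ± 0.27 (log2 change -0.19). IRF9, a subunit of the type I interferon factor ISGF3, was low and fell from 2.39 ± 0.08 to 1.42 ± 0.19 (-0.49), a call lost without control 1 (limma adjusted p = 0.0541) and in DESeq2 (adjusted p = 0.0864). NLRC5, the main class I transactivator, chosen after its values were seen, was 8.38, 8.49 and 8.20 in control 1, 2 and 3, against 9.43, 9.35 and 10.3 in MAT1A 1, 2 and 3. These groups did not overlap, but the log2 change of 0.19 did not pass (limma adjusted p = 0.133; 0.116 with the block).

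NF-κB and interferon signalling genes were also lower in part. Of 5 genes of NF-κB subunits, 3 were called lower and 0 higher, against 7.4% and 4.01% of all tested genes. The median log2 change was -0.32. RELB fell from 60.4 ± 3.02 to 39.8 ± 2.09 (SD, n = 3; log2 change -0.59), NFKB2 by 0.39 and NFKB1 by 0.32 on the log2 scale, and each stayed called whichever library was left out. Of 12 tested interferon, receptor and kinase genes, 3 were called lower and 0 higher (median -0.062), against the same shares of all tested genes. IFNL1, an interferon lambda gene, was low, at 1.43 ± 0.34 and 0.343 ± 0.14 (log2 change -0.85; a floor of 3 reads lay between 0.140 and 0.172). SOCS3, a feedback inhibitor of cytokine receptors, fell by 0.18 on the log2 scale and IFNAR1, a receptor chain for type I interferon, by 0.12. SOCS3 lost its call when any 1 control library or MAT1A 3 was left out (limma adjusted p up to 0.0827), and IFNAR1 when any library but MAT1A 3 was left out (up to 0.174). Neither was called by DESeq2 (adjusted p = 0.0774 and 0.113). These falls stood beside class I genes of which none was called lower; whether they bear on one another was not tested.

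Over the 6 libraries, the genes whose log2 values around the control mean lay nearest to those of HLA-B were TRIP13, REEP4 and RAB15 (root mean square distance 0.0101, 0.0128 and 0.0134 on the log2 scale, genes with a mean of at least 5). For TAP1 they were DNM2, ADGRG1 and WWC1 (0.00879, 0.00895 and 0.0107). The log2 changes of the genes nearest to HLA-B were 0.037, 0.050 and 0.042, and of those nearest to TAP1 0.0015, 0.010 and 0.0058. Neither HLA-B nor TAP1 was called, so nearness here may reflect no more than little change. Whether these genes share any control was not tested.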

How the data were processed

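RNA of 5637 cells was sequenced from 3 empty vector and 3 MAT1A libraries (TruSeq RNA v2, 36 cycles, a kit that does not mark strand, per the labels' protocols). STAR 2.6.0c, featureCounts, edgeR and hg38 are named, per the submitters' processing notes. The authors deposited 1 table of 13271 genes in a signal unit, reads on a CPM-like scale. Every value was a whole multiple (within 0.001) of 1 read's worth, which gave the reads back: 17.4, 19.8 and 20.7 M in control 1, 2 and 3 and 18.7, 19.8 and 21.6 M in MAT1A 1, 2 and 3. The rarest gene had 25 reads over the table, and no mitochondrial gene was among the analysed genes. Of the 9 genes PSMB9 had the fewest reads (179 to 256 per library) and so the largest relative counting error. No library pair of a group agreed within sampling noise (chi-square per degree of freedom 1.86 to 4.37).

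Values were tested as log2(value + 1) with limma 3.58.1 (R 4.3.3; trended variance, group as the only term) on the 12866 genes that reached 1 in 3 or more libraries. A gene was called under a Benjamini-Hochberg adjusted p of 0.05 over all of them. edgeR 4.0.16 and DESeq2 1.42.0 on the recovered reads were alternatives, since the unit is not a count. The recovered reads would have allowed a count test as the main one, and that of edgeR called 2 of the 9 genes. Ratios were tested by exact two-sided permutation and, as an alternative chosen after seeing the data, within replicate numbers. In a test on simulated data for this comparison, 66, 78, 94 and 96% of 50 genes each changed 1.25-, 1.5-, 2- and 3-fold were recovered among 12866. The largest change of means among the 9 genes was 18.5% (PSMB9), below 1.25-fold, so these shares do not cover changes of that size. No replicate effect was simulated.

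Replicate numbers come from the labels, which do not say that they mark a shared culture or day. Libraries with the same number deviated from their group means together (correlations 0.25, 0.18 and 0.19, against -0.17 to -0.025 for other pairs). Deviations cancel out within a group, so positive values for equal numbers force negative ones elsewhere on average. The negative values are therefore no separate sign of pairing. On the positive values alone the replicate block was treated as a pairing.

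The 9 genes and the 12 pathway and marker lists were chosen with earlier results of these data known; the skeletal muscle list was added after a library was seen to stand apart. Named were the 9 genes, the genes of the 6 ratios, up to 4 called genes with the smallest p from each list (where none was called, up to 2 with the highest mean), and the 3 genes nearest to HLA-B and to TAP1. GATA3, NLRC5, PSMB10 and the uroplakin genes were named after their values were seen. Some genes and a motif that this rule or search covers are not reported here. Symbols were matched to GENCODE 29 (13211 of 13271), and promoter windows are from RefSeq GRCh38.p14.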

Additional observations from a re-analysis of the deposited data

How the results depend on the processing

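No class I gene was called lower in any of the 17 alternatives. The count of class I genes called higher (3) was 1 in DESeq2, 0 at an adjusted p under 0.01, 2 in edgeR, 4 with the replicate block, 5 with a length and GC trend removed and the replicate block, and 0 to 4 when 1 library was left out. It was 0 without control 1 or MAT1A 1, 1 without control 2, control 3 or MAT1A 2, and 4 without MAT1A 3. Over all genes, 516 were called higher and 952 lower. DESeq2 called 319 higher, the stricter threshold left 175 higher and 488 lower, the replicate block gave 974 higher, and the block after removal of that trend 1061. Leaving out 1 library gave 225 to 669 higher and 571 to 989 lower. The pseudocount, the filters and the 2 other scalings left the 3 calls at 3, and moved the median of all genes to between 0.0030 and 0.0069. The block changed the calls of PSMB9, PSMB5 and PSMB6 among the class I genes and the 4 compared subunits, and no other. Directions turned only where changes were near 0: HLA-B was -0.018 without MAT1A 2 (range when 1 library was left out -0.018 to 0.072), and TAP1 was -0.019 in both analyses that removed a trend in length and GC, -0.0018 without control 1 and -0.014 without MAT1A 1 (range when 1 library was left out -0.014 to 0.025). CD74 ranged from -0.082 to 0.050, CIITA from -0.19 to 0.019, and the HLA-B to B2M log2 ratio from -0.030 to 0.048 when 1 library was left out. The cause of these shifts was not tested. IRF9, IFNL1 and CIITA have no value with a filter of at least 5, which removes them, and the ratios were recomputed only with the other pseudocount, within replicate numbers and with 1 library left out.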
